A study of Mus musculus with 12 samples.

Results

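The genes described here encode the replication-dependent histones of the mouse, the H1, H2A, H2B, H3 and H4 proteins that package newly made DNA. They were taken as every row of the deposited tables whose gene symbol begins with Hist1h, Hist2h, Hist3h or Hist4h. That gave 84 rows with 70 symbols, which made 69 genes after the loci of a symbol were summed and symbols on 1 locus were joined, out of 43613 genes that had a name and a value in the tables. By symbol, 19 of the 69 are H2A genes, 19 H2B, 13 H4, 11 H3 and 6 H1, and 1 is a shared locus of an H2A and an H3 gene (Hist2h2aa1 and Hist2h3c1). GENCODE gives no coding transcript for 3 of them, Hist1h2aj, Hist1h2al and Hist3h2bb-ps.

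The study sequenced RNA from splenic B cells of female mice aged 6 months that carry Sle1b, a lupus susceptibility interval, with C57BL/6J as the background strain. The libraries form 4 groups of 3. Ifnar1KO GC and Ifnar1KO non-GC come from mice labelled B6.Sle1b.IFNaR1-/-, which lack the type I interferon receptor subunit by label, and Sle1b GC and Sle1b non-GC come from mice labelled B6.Sle1b. Both genotypes carry Sle1b, and no mouse without it was among the samples. GC libraries hold live B220+ GL7+ CD95+ cells, the surface phenotype of germinal centre B cells, and non-GC libraries hold B220+ GL7- CD95- cells, both sorted from spleen. The labels do not say whether the 3 libraries of a group come from separate mice, so the p-values measure the spread between these libraries. The deposited tables came as 3 batches, each with 1 library of every group, and each value is an FPKM, the authors' fragment count scaled by transcript length and by library size. Each table was normalized alone, so levels of different batches are not on a common scale. Where levels are set side by side across batches, the listed values alone are described.

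Histones are needed in bulk when DNA is copied, and most of them come from clustered genes without introns that are switched on as cells enter S phase. Their mRNAs end, in general, in a conserved stem-loop in place of a poly(A) tail, and stem-loop binding protein (Slbp) guides the making of that end. Germinal centre B cells divide quickly, while most B cells outside the germinal centre rest, and the library kit named in the labels primes reverse transcription on poly(A) tails.

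The stem-loops of a few members show this 3′ end. They are given because the library kit primes on poly(A) tails and the members are grouped by their annotated 3′ end further down. Sequences were read from GENCODE M21 transcripts (GRCm38), 5′ to 3′ on the sense strand, with the paired arms of the stem in capitals.
Hist1h2bm (chr13:21722501-21722526, plus strand): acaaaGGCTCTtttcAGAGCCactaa
Hist1h2bp (chr13:21787918-21787943, plus strand): acaaaGGCTCTtttcAGAGCCaccca
Hist1h2bj (chr13:22043633-22043658, plus strand): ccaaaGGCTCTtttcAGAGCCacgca
Hist1h3d (chr13:23576239-23576264, plus strand): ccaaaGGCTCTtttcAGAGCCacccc
Hist1h3g (chr13:23535884-23535909, plus strand): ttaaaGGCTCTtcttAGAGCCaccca
Hist1h4d (chr13:23581945-23581970, plus strand): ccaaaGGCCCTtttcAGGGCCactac
Hist4h4 (chr6:136803993-136804018, minus strand): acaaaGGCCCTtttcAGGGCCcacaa
The histone stem-loop, with both arms paired, was found in a transcript of 46 of the 70 symbols, in 8 different spellings. The commonest spelling occurred in 26 symbols. The loop letters tctt were found in Hist1h3g alone and tctc in Hist1h4a alone. In the last 150 bases of the transcript it was present for 34.3% of the histone symbols and for 0.0688% of 21810 other coding genes. For 20 symbols the model ended within 50 bases after the stem-loop. For 15 symbols it held the poly(A) signal AATAAA in its last 50 bases, a feature of 65.9% of other coding genes. The other models include short ones that hold little more than the coding part, so a missing stem-loop says nothing about the gene itself.

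The level of each member in each library is drawn in the map of histone levels. A member was listed at 0 in many libraries, and an exact 0 in these tables can be a failed estimate as well as an absence of reads. In batch 1, 14 of 69 members were listed at 0 in Ifnar1KO GC and 24 in Ifnar1KO non-GC, while 5 were listed at 0 in Sle1b GC and 37 in Sle1b non-GC. In batch 2 the numbers at 0 were 48 in Ifnar1KO GC, 46 in Ifnar1KO non-GC, 33 in Sle1b GC and 38 in Sle1b non-GC. In batch 3 they were 65, 64, 56 and 56 in the same order of groups. No member was above 0 in all 12 libraries, 7 were above 0 in at least 10, and 3 (the H2A genes Hist1h2aa, Hist1h2ae and Hist1h2ah) were listed at 0 in every library. A further 10 members were above 0 in GC libraries of batch 1 and in no other library. Of the 45 members that passed the filter for testing, 29 were listed at 0 in all 4 libraries of batch 3 (64.4%), against 14.4% of the 14605 genes tested.

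**Figure D1:**
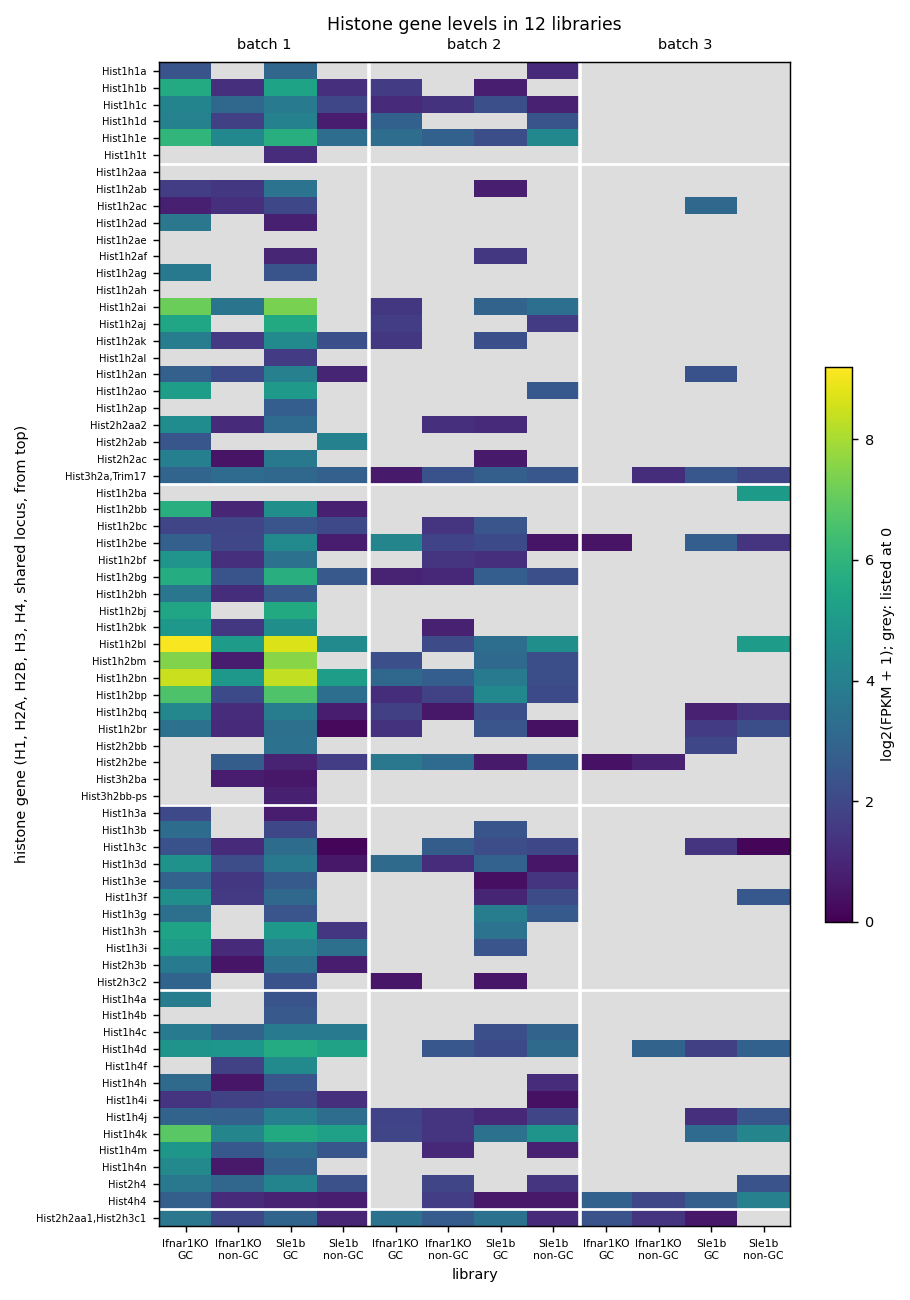
Levels of the 69 histone genes (rows, by class) in the 12 libraries (columns, by batch), as log2(FPKM + 1), with grey cells listed at 0. The GC columns of batch 1 hold the highest values, and most cells of batch 3 are grey.

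Few reads lay behind many of these values. The smallest steps of the values are whole multiples of 1 read, and 1 read on a transcript of 400 bases was worth between 0.611 and 1.73 FPKM, depending on the library. Where a listed 0 is an absence of reads and not a failed estimate, it allows such a gene a level of up to 1.83 to 5.19 FPKM (the worth of 3 reads, counting error only). Among the 48 histone rows of at most 800 bases, 42.7% of the values above 0 stood for 5 reads or fewer, and the median stood for 8 reads. All rows of that size together held an estimated 1641 reads in Ifnar1KO GC and 267 in Ifnar1KO non-GC of batch 1, and 1407 in Sle1b GC and 147 in Sle1b non-GC. In batch 2 they held 47, 31, 115 and 143 reads in the same order, and in batch 3 they held 0, 0, 18 and 64.

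The libraries of batch 3 stood apart in other genes too. Between 35.2% and 58.9% of the 14605 genes tested were listed at 0 in them, against 12% to 26.4% in batches 1 and 2, and reads on unnamed loci made up 32.1% to 83% of the estimated reads, against 6.17% to 21.2%. Estimated reads on named genes ran from 909000 (Sle1b GC of batch 3) to 7415000 (Ifnar1KO GC of batch 1). Ifnar1 itself, at gene level, was at 14.5, 15 and 0 FPKM in Ifnar1KO GC (batches 1 to 3), 54.9, 70.5 and 2.56 in Ifnar1KO non-GC, 6.44, 9.99 and 6.77 in Sle1b GC and 18.5, 36.6 and 3.09 in Sle1b non-GC. It was thus higher in the libraries labelled Ifnar1KO in batches 1 and 2, against that label, and the gene-level value does not show which exons were read, so "Ifnar1KO" means the label throughout.

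Summed over the 69 members, histone FPKM in batch 1 was 2327 in Ifnar1KO GC against 237.6 in Ifnar1KO non-GC, and 2014 in Sle1b GC against 237.6 in Sle1b non-GC. In batch 2 the sums were 94.4 and 67.3 FPKM in Ifnar1KO GC and non-GC, and 173 and 153 FPKM in Sle1b GC and non-GC. In batch 3 they were 11 and 13.2 FPKM in Ifnar1KO, and 48.0 and 125 FPKM in Sle1b. The GC sum was 9.79 times the non-GC sum in Ifnar1KO and 8.48 times in Sle1b in batch 1, 1.40 and 1.14 times in batch 2, and 0.834 and 0.383 times in batch 3. After each library was rescaled to a common sum over the genes tested, the ratios became 5.19 and 5.26 in batch 1 and 1.58 and 1.29 in batch 2. In batch 3 they became 5.56 and 1.62, so the direction there turned with the scaling.

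**Figure D2:**
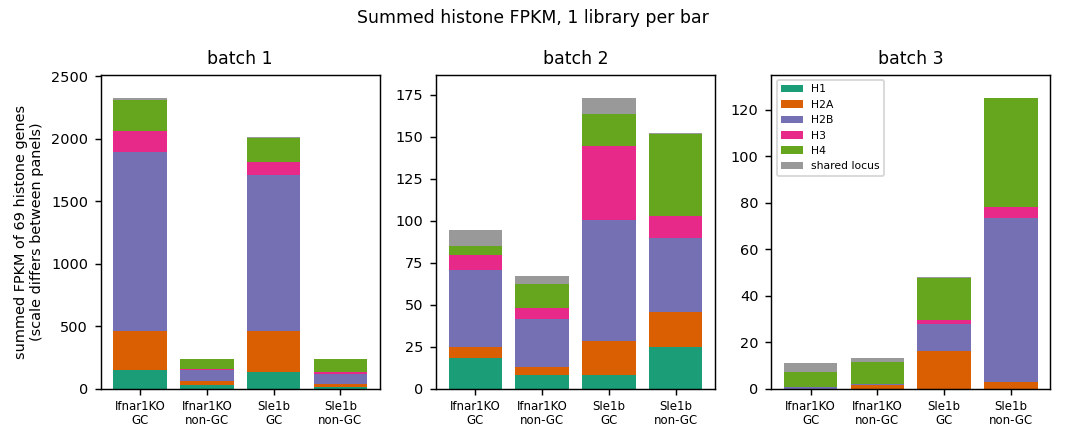
Summed FPKM of the 69 histone genes in each library, stacked by histone class, with a separate scale for each batch. In batch 1 the GC bars reach 2327 (Ifnar1KO) and 2014 (Sle1b) and the non-GC bars 237.6 each, while in batch 2 no bar passes 173.2.

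H2B genes, whose product pairs with H2A in the nucleosome, took the largest share in the GC libraries of batch 1. They made up 61.5% of histone FPKM in Ifnar1KO GC and 37.9% in Ifnar1KO non-GC of batch 1, and 62.1% in Sle1b GC and 32.0% in Sle1b non-GC, where H4 genes took more. H4 genes made up 10.7% in Ifnar1KO GC and 32.1% in Ifnar1KO non-GC of that batch, and 9.63% in Sle1b GC and 45.5% in Sle1b non-GC. The H4 share was thus lower in GC in both genotypes. The same holds of H4 in batch 2, where its shares were 5.67% and 20.7% in Ifnar1KO and 10.7% and 31.7% in Sle1b, in GC and non-GC. Each share is a value of 1 library, with no replicate check within its batch.

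Members in the first block of the chromosome 13 cluster carried most of the histone FPKM in the GC libraries of batch 1. The 19 members in chr13:21715133-21837599 gave 74.6% of histone FPKM in Ifnar1KO GC and 48.5% in Ifnar1KO non-GC of batch 1, and 74.3% in Sle1b GC and 55.8% in Sle1b non-GC. The 31 members in chr13:23531050-23934851 gave 17.6% in Ifnar1KO GC and 38.0% in Ifnar1KO non-GC, and 17.9% in Sle1b GC and 30.9% in Sle1b non-GC. The 9 members on chromosome 3 gave 3.6% and 3.41% in the Ifnar1KO GC and Sle1b GC libraries, and those on chromosomes 6 and 11 less than either.

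Sequence shared between members limits the assignment of reads. Of the 70 symbols, 33 shared at least 50% of their 50-base windows with another member, so a read from such a stretch matches more than 1 gene. Sums over a class are less exposed to this than values of single members. The share was 93.1% for Hist1h2aj, 90.1% for Hist1h2ai, 85.8% for Hist1h2an and 52.3% for Hist1h2ak, so the values of these H2A genes are uncertain. Among H2B genes it was 98.5% for Hist1h2bq, 86.4% for Hist1h2bn and 82.8% for Hist1h2bl, which are as uncertain, and 36.2% for Hist1h2bm. Among H3 and H4 genes it was 93.9% for Hist1h3h and 71.5% for Hist1h4k, against 24.8% for Hist1h3d and 10.2% for Hist1h4d.

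The member with the highest median level was Hist1h2bl, an H2B gene (chr13:21715133-21716184). In Ifnar1KO GC it was at 557, 0 and 0 FPKM in batches 1 to 3, against 33.2, 3.37 and 0 FPKM in Ifnar1KO non-GC. The Sle1b GC values were 418, 8.92 and 0 FPKM, against 19.9, 23.2 and 31.9 FPKM in Sle1b non-GC. Its level was higher in GC in batch 1 in both genotypes, lower in GC in batch 2 in both, and the groups overlap. Averaged over both genotypes, the fitted difference of GC minus non-GC was 0.10 ± 1.11 on the log2(FPKM + 1) scale (SE; limma, adjusted p = 0.972).

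Hist1h2bn, another H2B gene (chr13:21754123-21754503), was at 356, 7.52 and 0 FPKM in Ifnar1KO GC, against 28.8, 5.78 and 0 in Ifnar1KO non-GC. Among Sle1b libraries, GC had 323, 12.9 and 0 FPKM, against 34.9, 3.58 and 0 in Sle1b non-GC. GC was higher in both genotypes in batches 1 and 2, and all 4 libraries of batch 3 were at 0. Behind these values stood 338 and 43 estimated reads in Ifnar1KO GC and non-GC and 307 and 35 in Sle1b GC and non-GC in batch 1, but 4 and 5, and 13 and 4, in batch 2. The averaged difference was 1.58 ± 0.56 (limma, adjusted p = 0.188).

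Hist1h2bm (H2B, chr13:21722098-21722478) had the largest averaged difference of all members tested. It was at 173, 3.76 and 0 FPKM in Ifnar1KO GC, against 0.669, 0 and 0 in Ifnar1KO non-GC. Sle1b GC cells gave 187, 7.93 and 0 FPKM, against 0, 3.58 and 0 in Sle1b non-GC. The gene was thus far higher in GC in batch 1, by a small number of reads in batch 2 (2 in Ifnar1KO GC and 0 in Ifnar1KO non-GC, 8 in Sle1b GC and 4 in Sle1b non-GC), and not seen in batch 3. The averaged difference of 2.98 ± 0.99 did not pass the threshold (limma, adjusted p = 0.164).

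Hist1h2bp (H2B, chr13:21787461-21789213) was at 97.4, 1.33 and 0 FPKM in Ifnar1KO GC, against 3.23, 2.44 and 0 in Ifnar1KO non-GC. In Sle1b GC it was at 101, 18.4 and 0 FPKM, against 8.92, 3.15 and 0 in Sle1b non-GC. GC was lower in the Ifnar1KO pair of batch 2 and higher in the other pairs of batches 1 and 2, and the averaged difference was 1.71 ± 0.68 (limma, adjusted p = 0.224).

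Among H2A genes, Hist1h2ai (chr13:21716422-21716814) was at 139, 1.78 and 0 FPKM in Ifnar1KO GC, against 10.7, 0 and 0 in Ifnar1KO non-GC. The Sle1b GC values were 164, 6.57 and 0 FPKM, against 0, 9.31 and 0 in Sle1b non-GC. The groups were far apart in batch 1 and overlapped when the batches were pooled, with an averaged difference of 2.09 ± 1.00 (limma, adjusted p = 0.295). Hist1h2aj (an H2A symbol with no coding transcript in GENCODE, chr13:21721433-21721808) was at 41.3, 2.17 and 0 FPKM in Ifnar1KO GC, against 0 in all 3 Ifnar1KO non-GC libraries. Among Sle1b libraries, GC had 47.4, 0 and 0 FPKM, against 0, 2.07 and 0 in Sle1b non-GC, with an averaged difference of 1.89 ± 0.85 (limma, adjusted p = 0.273).

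Of the H3 genes, Hist1h3h (chr13:21717659-21718069) was at 39.8, 0 and 0 FPKM in Ifnar1KO GC, against 0 in all 3 Ifnar1KO non-GC libraries. Sle1b GC cells gave 28.8, 10.4 and 0 FPKM, against 1.73, 0 and 0 in Sle1b non-GC. Its averaged difference was 2.12 ± 0.73 (limma, adjusted p = 0.178). Hist1h3d (H3, chr13:23575763-23576322) was at 24.8, 8.10 and 0 FPKM in Ifnar1KO GC, against 3.48, 1.24 and 0 in Ifnar1KO non-GC. In Sle1b GC it was at 12.2, 6.44 and 0 FPKM, against 0.516, 0.480 and 0 in Sle1b non-GC. Within batches 1 and 2 every GC value was above every non-GC value, and over all 3 batches the averaged difference was 1.76 ± 0.53 (limma, adjusted p = 0.135).

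The linker histone H1 binds where DNA enters and leaves the nucleosome. Hist1h1b (chr13:21779883-21780625) was at 48.7, 2.06 and 0 FPKM in Ifnar1KO GC, against 1.39, 0 and 0 in Ifnar1KO non-GC. The Sle1b GC values were 39.3, 0.728 and 0 FPKM, against 1.37, 0 and 0 in Sle1b non-GC. GC was higher in both genotypes in batches 1 and 2, with an averaged difference of 1.90 ± 0.64 (limma, adjusted p = 0.171). Hist1h1e (chr13:23621755-23622502) was at 65.9, 8.84 and 0 FPKM in Ifnar1KO GC, against 18.4, 6.23 and 0 in Ifnar1KO non-GC. Among Sle1b libraries, GC had 54.3, 3.61 and 0 FPKM, against 8.84, 18.4 and 0 in Sle1b non-GC. The Sle1b pair of batch 2 ran the other way, and the averaged difference was 0.57 ± 0.57 (limma, adjusted p = 0.624).

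H4 genes were seen in non-GC libraries as well. Hist1h4k (chr13:21750194-21750505) was at 115, 2.75 and 0 FPKM in Ifnar1KO GC, against 17.1, 1.70 and 0 in Ifnar1KO non-GC. Sle1b GC cells gave 47.4, 10.1 and 8.34 FPKM, against 37.5, 26.3 and 17.3 in Sle1b non-GC. Hist1h4d (chr13:23581566-23582726) was at 26.4, 0 and 0 FPKM in Ifnar1KO GC, against 27.3, 4.58 and 6.54 in Ifnar1KO non-GC, and at 50, 3.22 and 2.32 FPKM in Sle1b GC, against 38.0, 8.12 and 6.21 in Sle1b non-GC. On the log2 scale used for testing, its GC value was lower in 4 of the 6 pairs, 1.04 higher in the Sle1b pair of batch 1 and 0.02 higher in the Ifnar1KO pair of that batch. The averaged difference of GC minus non-GC was -1.12 ± 0.48 for Hist1h4d (limma, adjusted p = 0.251) and 0.31 ± 0.63 for Hist1h4k (adjusted p = 0.829). The GC and non-GC groups of both H4 genes overlap.

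**Figure D3:**
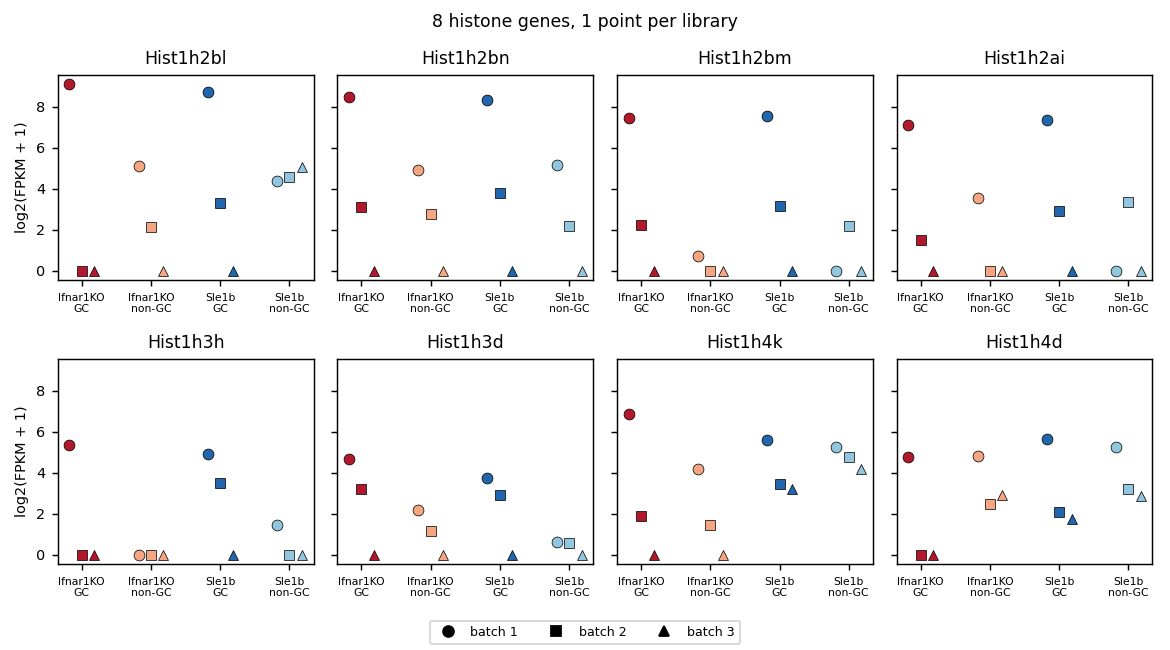
Levels of 8 histone genes as log2(FPKM + 1), 1 point per library, with the shape giving the batch. For Hist1h2bl, Hist1h2bn, Hist1h2bm, Hist1h2ai and Hist1h3h the batch 1 points stand high in GC and the batch 3 points of both GC groups lie at 0, while Hist1h4d shows no such gap.

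Over the 3 batches no member passed the test of GC against non-GC. The test was limma across the 14605 genes that reached 1 FPKM in 3 or more libraries, with the batch as a block and Benjamini-Hochberg adjustment. It left out 24 members that were below that level. In Ifnar1KO, 0 of 45 members passed an adjusted p of 0.05, against 3 of all genes tested (0.0205%), and 2 members had an unadjusted p under 0.05, 1 in each direction (12.6% of all genes, with 2.23% higher and 10.4% lower). In Sle1b, 0 of 45 passed, as of all genes (0%), and 9 members, each higher in GC, had an unadjusted p under 0.05 (9.33% of all genes, with 3.83% higher and 5.5% lower). Averaged over both genotypes, 0 of 45 passed, against 4 of all genes (0.0274%), and 16 members, 15 of them higher in GC, had an unadjusted p under 0.05 (17.8% of all genes, with 4.5% higher and 13.3% lower).

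The fitted differences were mostly above 0. The median over the 45 members was 0.82 in Ifnar1KO, where 37 were higher in GC and 8 lower, against -0.40 over all genes tested. In Sle1b it was 1.33, with 36 higher and 9 lower, against -0.11 over all genes, and averaged over both genotypes it was 1.10, with 39 higher and 6 lower, against -0.26. Relative to the median of all genes, the members stood 1.22 higher in Ifnar1KO and 1.45 higher in Sle1b. Members listed at 0 in both cells of a batch enter these values at a difference near 0, and the filter kept members by their highest libraries, while 54 of the 69 were above 0 in both GC libraries of batch 1. The medians without batch 1 were 0.01 in Ifnar1KO, 0.38 in Sle1b and 0.02 on average.

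Within batch 1, 50 of all 69 members were higher in GC and 8 lower in Ifnar1KO, and 63 were higher and 2 lower in Sle1b, and 49 were higher in GC in both genotypes. In batch 2, 17 were higher and 14 lower in Ifnar1KO, and 25 were higher and 19 lower in Sle1b. In batch 3, 3 were higher and 3 lower in Ifnar1KO, and 7 were higher and 10 lower in Sle1b, with the other members at 0 in both libraries. Of the 45 members tested, 27 were higher in GC by 2 or more on the log2 scale in the Ifnar1KO pair of batch 1 (4.25% of all genes). In the Sle1b pair 34 were (6.61% of all genes). In batch 2 the numbers were 4 (5.20% of all genes) and 10 (4.53%), and in batch 3 they were 0 (6.03%) and 2 (8.36%). Falls of 2 or more are not in these counts. Over all 69 members, 2, 10 and 2 were lower in GC by 1 or more in Ifnar1KO, in batches 1 to 3. In Sle1b 1, 13 and 8 were. Rises of 1 or more numbered 44, 10 and 0 in Ifnar1KO and 54, 17 and 5 in Sle1b. Each pair is 1 library against 1, so these counts describe those libraries. The Sle1b pair of batch 1 was compared only through other tables of that batch.

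The classes differed in the size of the gap in batch 1. Over all members of a class, the median difference in Ifnar1KO and Sle1b was 3.07 and 3.82 for H2B, 2.93 and 3.10 for H3, 2.06 and 3.23 for H1, 0.76 and 2.68 for H2A and 0.96 and 1.42 for H4, on the log2 scale. In batch 2 every class median lay between -0.71 (H4 in Sle1b) and 0.57 (H3 in Sle1b). Differences between the classes were not tested.

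Exactly 2 members were higher in GC in all 6 pairs of libraries, a pattern of 0.856% of all genes tested. The first was the shared locus of Hist2h2aa1 and Hist2h3c1 (H2A and H3, chr3:96243550-96248512), whose reads cannot be assigned to either gene. It was at 11.6, 9.70 and 4.07 FPKM in Ifnar1KO GC, against 2.96, 5.34 and 1.70 in Ifnar1KO non-GC. In Sle1b GC it was at 6.82, 9.86 and 0.521 FPKM, against 0.981, 1.19 and 0 in Sle1b non-GC. Its levels in batches 1 and 2 were alike, unlike those of the H2B genes above, and its averaged difference of 1.45 ± 0.41 had the smallest adjusted p of any member (limma, adjusted p = 0.123). The second was Hist1h2be (H2B, 3 loci within chr13:23583422-23621124), named after its values were seen, at 6.00, 17.2 and 0.390 FPKM in Ifnar1KO GC, against 2.90, 2.57 and 0 in Ifnar1KO non-GC. The Sle1b GC values were 19.4, 3.17 and 5.80 FPKM, against 0.660, 0.451 and 1.68 in Sle1b non-GC.

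When batches 1 and 2 were tested without batch 3, with the filter redone over their 8 libraries, 55 members entered among 13781 genes. Some of these, such as Hist1h2bj and Hist1h2bb, reached 1 FPKM only in the GC libraries of batch 1. The counts over the 55 thus include members that passed the filter through the group where they are high. In the average of both genotypes 3 members then passed, all higher in GC, against 440 of all genes (3.19%), and 25 had an unadjusted p under 0.05 (23.4% of all genes). They were Hist1h3d at 2.64 ± 0.47 (limma, adjusted p = 0.0293), the H2A gene Hist1h2ak at 2.21 ± 0.46 (adjusted p = 0.0435) and the H2B gene Hist1h2bq at 2.55 ± 0.53 (adjusted p = 0.0446). Hist1h2ak was at 14.0 and 1.78 FPKM in Ifnar1KO GC of batches 1 and 2, against 1.89 and 0 in Ifnar1KO non-GC, and at 20 and 3.76 in Sle1b GC, against 3.76 and 0 in Sle1b non-GC. Hist1h2bq was at 18.2 and 2.33 FPKM in Ifnar1KO GC, against 1.25 and 0.515 in Ifnar1KO non-GC, and at 14.1 and 3.72 in Sle1b GC, against 0.616 and 0 in Sle1b non-GC. Since 98.5% of the windows of Hist1h2bq and 52.3% of those of Hist1h2ak occur in other members, their reads may belong elsewhere in the family. Within each genotype no member passed in batches 1 and 2, with 8 of 55 at an unadjusted p under 0.05 in Ifnar1KO (17.9% of all genes) and 16 of 55 in Sle1b (12.7%), where 0.167% and 0.0581% of all genes passed the adjusted threshold.

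The authors' deposited tables test single loci between 2 libraries at a time. In the authors' deposited table for Ifnar1KO GC against Ifnar1KO non-GC of batch 1, 2 of 56 histone loci tested were called, with Hist1h2bj (H2B) higher and Hist2h2be (H2B) lower in GC, against 2.66% of all loci tested. In the authors' deposited table for Sle1b GC against Sle1b non-GC of batch 3, 2 of 14 were called, with Hist1h2bl and Hist1h2ba lower in GC, against 12.5% of all loci. The authors' deposited tables for the same comparisons in batch 2 called 0 of 13 histone loci in Ifnar1KO (0.454% of all loci) and 0 of 32 in Sle1b (2.15%), and that for Ifnar1KO in batch 3 called 0 of 3 (4.69%). In the authors' deposited table for Ifnar1KO non-GC against Sle1b non-GC of batch 1, 1 of 31 histone loci was called, with Hist2h2ab (H2A) lower in Ifnar1KO, against 1.03% of all loci. The authors' deposited table for the same pair called 0 of 22 in batch 2 (1.84% of all loci) and 3 of 10 in batch 3 (15.7%), where Hist1h2ba, Hist1h2bl and the H4 gene Hist2h4 were lower in Ifnar1KO. For Ifnar1KO GC against Sle1b GC, the authors' deposited tables called 0 of 64 in batch 1 (1.6% of all loci), 0 of 29 in batch 2 (5.83%) and 0 of 10 in batch 3 (6.46%). A table for Sle1b GC against Sle1b non-GC of batch 1 was not among the 17 used here, and these calls rest on 1 library a side.

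Values of genes of the same processes were set beside those of the histones in each batch. Mki67, a marker of cycling cells, was at 93.0, 247 and 6.56 FPKM in Ifnar1KO GC, against 2.12, 3.94 and 0.281 in Ifnar1KO non-GC. Among Sle1b libraries, GC had 133, 261 and 5.51 FPKM, against 1.23, 2.52 and 0.997 in Sle1b non-GC. Mki67 was thus higher in GC in every pair. Its listed GC level was higher in batch 2 than in batch 1, whereas summed histone FPKM in GC was lower in batch 2 than in batch 1 in both genotypes. Here and below, such levels of different batches are not on a common scale. Mki67 was higher in GC by 4.56 ± 0.62 on average (limma, adjusted p = 0.0332).

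The median difference of DNA replication genes was larger in batch 2 than in batch 1, the reverse of the histone median, and this contrast between lists was not tested. The 35 DNA replication genes had a median GC minus non-GC difference of 0.90 in batch 1 and 1.73 in batch 2 in Ifnar1KO, and of 1.19 and 1.88 in Sle1b, while the histone medians were 2.36 and 0.02 in Ifnar1KO and 3.31 and 0.00 in Sle1b. Averaged over both genotypes, 31 of the 35 were higher in GC and 4 lower, and 0 passed, with 12 at an unadjusted p under 0.05 (limma). Of all genes tested, 35.4% were higher in GC and 0.0274% passed. An unadjusted p under 0.05 was found for 17.8% of all genes, 4.5% higher and 13.3% lower. Cdc45, a part of the replicative helicase, was at 17.1, 6.72 and 0 FPKM in Ifnar1KO GC, against 0.996, 1.36 and 0 in Ifnar1KO non-GC, and at 6.27, 15.7 and 6.10 in Sle1b GC, against 0 in all 3 Sle1b non-GC libraries. Its averaged difference was 2.5 ± 0.53 (limma, adjusted p = 0.0817), with a smaller difference in batch 2 (1.74) than in batch 1 (3.10) in Ifnar1KO. That of the helicase subunit Mcm5 was 1.90 ± 0.48 (adjusted p = 0.108) and that of the initiation factor Mcm10 was 2.25 ± 0.57 (adjusted p = 0.109).

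The histone genes listed as replication-independent are in general expressed outside S phase as well. Their introns and 3′ ends were not examined gene by gene. Of 11 listed, 9 were tested, with 5 higher in GC and 4 lower on average. Of the 9, 0 passed and 4 had an unadjusted p under 0.05 (limma), against 0.0274% and 17.8% of all genes. H2afx, the variant phosphorylated at DNA breaks, was at 11.9, 10.9 and 4.76 FPKM in Ifnar1KO GC, against 0.747, 0.589 and 0 in Ifnar1KO non-GC. Sle1b GC cells gave 16.8, 11.6 and 0 FPKM, against 0.472, 0.761 and 0 in Sle1b non-GC. Its GC level was alike in batches 1 and 2, and its averaged difference was 2.52 ± 0.52 (limma, adjusted p = 0.0777). H2afz was at 67.4, 108 and 11.2 FPKM in Ifnar1KO GC, against 52.4, 34.0 and 1.02 in Ifnar1KO non-GC, and at 96.0, 139 and 5.40 in Sle1b GC, against 57.9, 43.8 and 0 in Sle1b non-GC. It was higher in GC in all 6 pairs, by 1.71 ± 0.42 on average (limma, adjusted p = 0.101). The linker variant H1f0 differed by 1.54 ± 0.50 (limma, adjusted p = 0.154), and H3f3a, an H3.3 gene, by -1.54 ± 0.72 (adjusted p = 0.285).

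Slbp and its partners make the histone mRNA 3′ end. Of 15 genes for histone mRNA transcription and 3′ end processing, 6 were higher in GC and 9 lower on average. Of the 15, 0 passed and 1 had an unadjusted p under 0.05 (limma), against 0.0274% and 17.8% of all genes. Slbp was at 17.9, 21.4 and 0 FPKM in Ifnar1KO GC, against 14.4, 12.3 and 0.208 in Ifnar1KO non-GC, and at 15.8, 62.3 and 0.0736 in Sle1b GC, against 9.36, 14.5 and 0 in Sle1b non-GC. Its GC level, like that of Mki67, was higher in batch 2 than in batch 1, with an averaged difference of 0.72 ± 0.40 (limma, adjusted p = 0.363). The cleavage factor Cpsf3, the exonuclease Eri1 and the poly(A) factor Cstf2 differed by -0.87 ± 0.37, -0.78 ± 0.39 and -0.86 ± 0.45 (limma, adjusted p = 0.247, 0.319 and 0.33).

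Of 20 histone chaperone and nucleosome assembly genes, 10 were higher in GC and 10 lower on average. Of the 20, 0 passed and 3 had an unadjusted p under 0.05 (limma), against 0.0274% and 17.8% of all genes. The CAF-1 subunits Chaf1a and Chaf1b, which place new H3 and H4 behind the replication fork, differed by 1.62 ± 0.51 (limma, adjusted p = 0.147) and 1.30 ± 0.45 (adjusted p = 0.182). Hjurp, the chaperone of the centromeric H3, differed by 1.55 ± 0.57 (limma, adjusted p = 0.198).

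**Figure D4:**
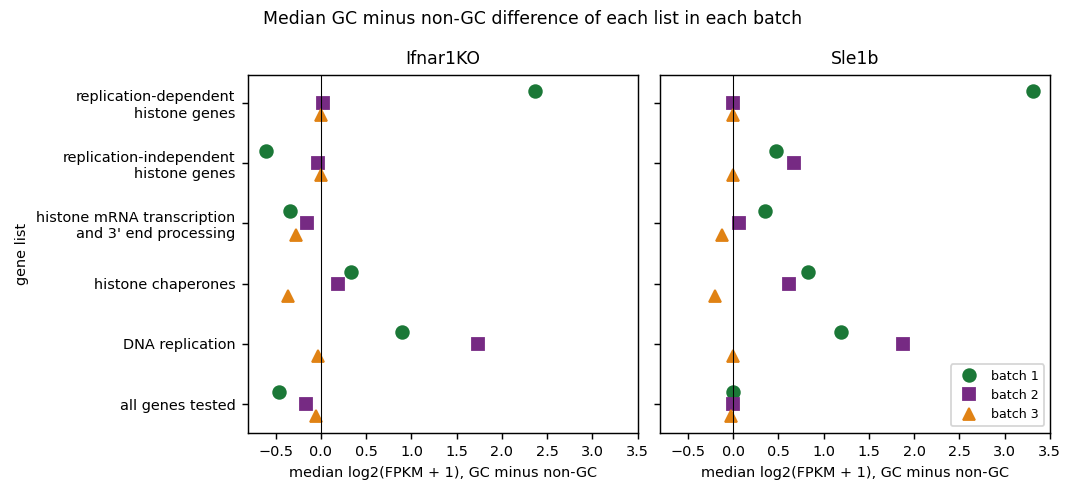
Median GC minus non-GC difference, on the log2(FPKM + 1) scale, of the tested genes of 5 lists and of all genes tested, for Ifnar1KO and Sle1b, with 1 point per batch. The histone medians are 2.36 and 3.31 in batch 1 and 0.02 and 0.00 in batch 2, where the DNA replication medians are 1.73 and 1.88.

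Markers of other cells differed between libraries. The 4 erythroid markers summed to 14.6, 0 and 3.54 FPKM in Ifnar1KO GC, against 12.3, 6.46 and 0 in Ifnar1KO non-GC, and to 44.1, 0.241 and 0.173 in Sle1b GC, against 5.90, 4.62 and 0 in Sle1b non-GC. The 5 myeloid markers summed to 14.3, 19.8 and 0.0763 FPKM in Ifnar1KO GC, against 36.5, 14.8 and 1.09 in Ifnar1KO non-GC, and to 75.7, 7.85 and 2.70 in Sle1b GC, against 46.7, 21.7 and 11.7 in Sle1b non-GC. Sle1b GC of batch 1 was the highest library for both lists and the only 1 with none of these 9 markers at 0. Ifnar1KO GC of batch 1, with a histone sum of 2327 FPKM, had the next highest erythroid sum, 14.6 FPKM, and a myeloid sum of 14.3 FPKM. Ifnar1KO non-GC of that batch, with a histone sum of 237.6 FPKM, had 12.3 and 36.5 FPKM of these markers. The 5 T cell markers summed to 2.85, 9.38 and 0 FPKM in Ifnar1KO GC, against 11, 7.42 and 7.47 in Ifnar1KO non-GC, and to 12.6, 1.15 and 38.1 in Sle1b GC, against 8.69, 16.6 and 2.14 in Sle1b non-GC. The 3 plasma cell markers found summed to at most 26.9 FPKM. The part of any other cell type in the histone values was not tested beyond these sums, and in bulk RNA fewer expressing cells and less RNA per cell cannot be told apart.

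Members were also grouped by the 3′ end of their GENCODE transcript model. Of 18 members whose model ended within 50 bases after the stem-loop and held no AATAAA near its end, 15 were above 0 in Ifnar1KO GC and 10 in Ifnar1KO non-GC of batch 1, and 18 in Sle1b GC and 2 in Sle1b non-GC. In batch 2 the numbers were 1, 4, 5 and 5 in the same order, and in batch 3 none of the 18 was above 0 in any library. Hist1h2bp also has a model that ends that near, but 1 of its 2 models holds AATAAA near its end. It is counted with the 15 members that have AATAAA near the end of a model. Hist2h2aa1 ends that near and holds no AATAAA there. Its joined locus is counted with those 15 because the models of Hist2h3c1 hold AATAAA. The locus of Hist2h2aa1 and Hist2h3c1 was above 0 in 3 libraries of batch 3, at 4.07 FPKM in Ifnar1KO GC, 1.70 in Ifnar1KO non-GC and 0.521 in Sle1b GC. Of the 15 members with AATAAA, 11, 12, 14 and 11 were above 0 in batch 1, 9, 10, 10 and 10 in batch 2, and 4, 4, 7 and 7 in batch 3. Another 15 members had a model running over 50 bases past the stem-loop without AATAAA. Of these, 15, 13, 15 and 8 were above 0 in batch 1, 5, 5, 11 and 10 in batch 2, and 0, 1, 3 and 3 in batch 3. For the 21 members with neither feature in the model the numbers were 14, 10, 17 and 11, then 6, 4, 10 and 6, then 0, 0, 3 and 3. The deposited loci that gave the FPKM can end elsewhere than these models. Hist1h2ac, counted as running further, has a model of 2482 bases but a locus of 476 bases. The locus of Hist1h2bm ended at 21722478, before its stem-loop at 21722501-21722526. The groups thus describe the models and not the ends that were measured. A longer locus lowers the FPKM of 1 read, and depth differed between the libraries, and the part of either in these counts was not tested. Hist4h4, an H4 gene on chromosome 6, is among the 15 members with AATAAA, and its model runs 2445 bases past the stem-loop. It was at 5.84, 0 and 6.18 FPKM in Ifnar1KO GC, against 1.17, 2.19 and 2.85 in Ifnar1KO non-GC. In Sle1b GC it was at 0.846, 0.535 and 5.84 FPKM, against 0.696, 0.544 and 14.9 in Sle1b non-GC. Its listed value was higher in batch 3 than in batch 2 in all 4 groups, but levels of different batches are not on a common scale. The share of all genes with that pattern was not counted, and Hist4h4 is named after its values were seen.

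**Figure D5:**
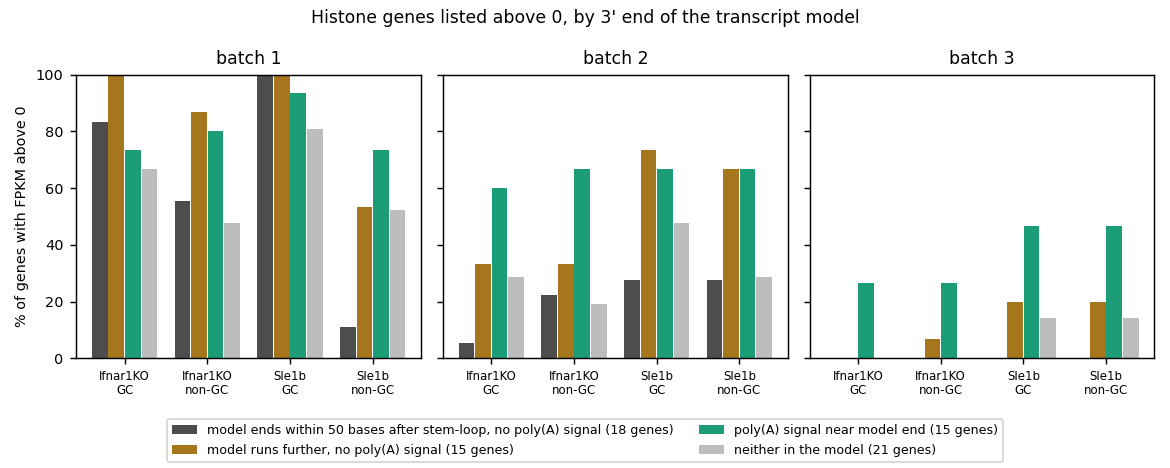
Percent of histone genes listed above 0 in each library, by the 3′ end of the GENCODE transcript model, with batches in separate panels. Genes whose model ends within 50 bases after the stem-loop with no poly(A) signal are at 0% in all 4 libraries of batch 3. There, 4 to 7 of the 15 genes with a poly(A) signal are above 0, and 0 to 3 of the 15 whose model runs further without it. The joined locus of Hist2h2aa1 and Hist2h3c1 is counted with the poly(A) signal genes. The deposited loci that gave the FPKM can end elsewhere than these models.

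Many H2A and H2B genes lie head to head. Among members with a RefSeq promoter, 9 pairs of an H2B and an H2A gene started on opposite strands 164 to 281 bases apart. The H2B gene had the higher FPKM in 7 of the 9 pairs in both GC libraries of batch 1, and Hist1h2bl with 557 FPKM in Ifnar1KO GC stood beside Hist1h2ai with 139. The exceptions were Hist1h2bq, at 18.2 FPKM in Ifnar1KO GC and 14.1 in Sle1b GC beside Hist1h2ao at 34.7 and 30.6, and the pair Hist1h2ba and Hist1h2aa, at 0 in both libraries. The promoters of Hist1h2bl and of Hist1h2bm are shown from 250 bases before to 50 after the start, since these H2B genes had the highest level and the largest averaged difference. They come from RefSeq (GRCm38.p6), 5′ to 3′ along the gene, with matches to the motifs ATTTGCAT, CCAAT and TATAAA on either strand in capitals.
Hist1h2bl (chr13:21716134-21716433, minus strand): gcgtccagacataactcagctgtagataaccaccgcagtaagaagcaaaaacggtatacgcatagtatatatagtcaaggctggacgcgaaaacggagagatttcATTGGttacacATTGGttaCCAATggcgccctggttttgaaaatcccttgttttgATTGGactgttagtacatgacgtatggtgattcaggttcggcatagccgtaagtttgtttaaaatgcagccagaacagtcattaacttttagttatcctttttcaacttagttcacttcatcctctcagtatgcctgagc
Hist1h2bm (chr13:21721794-21722093, plus strand): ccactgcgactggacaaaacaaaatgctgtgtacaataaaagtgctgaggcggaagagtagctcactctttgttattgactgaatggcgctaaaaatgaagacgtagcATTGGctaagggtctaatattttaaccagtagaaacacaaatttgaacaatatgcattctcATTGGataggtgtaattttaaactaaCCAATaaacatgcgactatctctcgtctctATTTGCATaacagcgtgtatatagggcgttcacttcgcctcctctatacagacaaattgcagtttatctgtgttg
The window of Hist1h2bl overlaps the start of Hist1h2ai, and both windows hold CCAAT on both strands. CCAAT, the NF-Y recognition core, was found in 85.5% of the 62 member promoters in the table and in 37.9% of 27025 promoters of all genes. It was in every H1, H2A, H2B and H3 promoter and in 3 of 12 of H4. The octamer ATTTGCAT, recognised by POU factors, was found in 7 of 18 H2A and 6 of 16 H2B promoters, in none of H1, H3 or H4, and in 1.75% of all promoters. TATAAA was found in 56.5% of the member promoters and in 14.2% of all. The RefSeq window of Hist1h2ap is that of Hist1h2ao, far from Hist1h2ap itself, so that promoter is counted under both symbols. Among H2B genes the median level in batch 1 was 39.9 FPKM in Ifnar1KO GC and 0.826 in Ifnar1KO non-GC for the 6 with the octamer, and 22.6 and 1.36 FPKM for the 10 without. In Sle1b GC and non-GC it was 23.0 and 0 FPKM with the octamer, and 16.8 and 0.396 without. Among H2A genes it was 0.733 and 0.390 FPKM in Ifnar1KO GC and non-GC for the 7 with the octamer, and 11.9 and 0.572 for the 10 without, and in Sle1b GC and non-GC it was 2.95 and 0 with it and 7.52 and 0 without. The median was thus higher in GC in all of these groups, and in GC libraries the genes with the octamer had the higher median in H2B and the lower in H2A. The 7 H2A genes with the octamer include Hist1h2aa, Hist1h2ae and Hist1h2ah, listed at 0 in every library, and the locus of Hist3h2a and Trim17. Their Ifnar1KO medians, 0.733 FPKM in GC and 0.390 in non-GC, each stood for an estimated 1 read.

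Between the genotypes no member passed. In GC cells, 0 of 45 passed for libraries labelled Ifnar1KO against Sle1b, as of all genes (0%), and 3 members had an unadjusted p under 0.05, all lower in Ifnar1KO (limma; 6.35% of all genes, with 1.16% higher and 5.2% lower). In non-GC cells, 0 of 45 passed, as of all genes (0%), and 2 members had an unadjusted p under 0.05, 1 in each direction (limma; 1.79% of all genes, with 0.876% higher and 0.917% lower). The median member difference was -0.45 in GC, with 12 higher and 33 lower in Ifnar1KO, against -0.26 over all genes, and -0.07 in non-GC, with 21 higher and 24 lower, against 0.02. The sums of histone FPKM in GC were 2327, 94.4 and 11 in Ifnar1KO, against 2014, 173 and 48.0 in Sle1b. Ifnar1KO was the lower in batches 2 and 3. In batch 1 the order turned with the table used, since the tables of Ifnar1KO gave sums from 1551 to 2518 and no table of Sle1b gave less than 1862. In non-GC cells the sums were 237.6, 67.3 and 13.2 in Ifnar1KO, against 237.6, 153 and 125 in Sle1b.

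The members with the largest genotype differences did not pass either. In GC, Hist1h4d differed by -1.71 ± 0.67 (limma, adjusted p = 0.774), the locus of Hist3h2a and Trim17 (chr11:58954685-58978050) by -1.69 ± 0.60 (adjusted p = 0.774) and Hist1h3c (H3, chr13:23743555-23745501) by -1.60 ± 0.78 (adjusted p = 0.774). Hist1h3c was at 3.99, 0 and 0 FPKM in Ifnar1KO GC, against 8.46, 3.53 and 1.63 in Sle1b GC, lower in Ifnar1KO in each batch. In non-GC, Hist1h4k differed by -2.81 ± 0.90 and Hist1h2bl by -2.20 ± 1.57, and the locus of Hist2h2aa1 and Hist2h3c1 by 1.36 ± 0.58 (limma, adjusted p = 1 for all 3). Hist1h4k had 17.1, 1.70 and 0 FPKM in Ifnar1KO non-GC, against 37.5, 26.3 and 17.3 in Sle1b non-GC, lower in Ifnar1KO in each batch.

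The difference between the genotypes in the GC effect was tested as an interaction, and 0 of 45 members passed, as of all genes (0%), with 1 member, below 0, at an unadjusted p under 0.05 (limma; 3.65% of all genes, with 0.657% above 0 and 2.99% below). The median member interaction was -0.34, with 17 above 0 and 28 below, against -0.26 over all genes. The largest were Hist1h3c at -2.15 ± 1.10, Hist1h2ac (H2A, chr13:23683449-23683924) at -1.96 ± 0.90 and Hist1h2an (H2A, chr13:21786826-21787218) at -1.72 ± 0.94, each with a limma adjusted p of 0.996. Hist1h2ac had an estimated 1, 0 and 0 reads in Ifnar1KO GC, against 3, 0 and 0 in Ifnar1KO non-GC, and 4, 0 and 8 in Sle1b GC, against 0 in all 3 Sle1b non-GC libraries. Hist1h2an had 5.99, 0 and 0 FPKM in Ifnar1KO GC, against 3.15, 0 and 0 in Ifnar1KO non-GC, and 15, 0 and 3.95 in Sle1b GC, against 0.940, 0 and 0 in Sle1b non-GC. Both were above 0 in GC of batch 3 in Sle1b alone, in 1 library each.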

How the data were processed

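RNA of 12 libraries of sorted splenic B cells was measured, with 3 libraries in each of 4 groups. The 17 deposited tables each compare 2 libraries and give an FPKM per locus and library, with a p-value and q-value per locus that the authors' Cuffdiff run produced. The submitters' processing notes name CASAVA, Bowtie2 2.1.0, TopHat2 2.0.9, Cufflinks 2.2.1, Cuffdiff and the build GRCm38 (mm10), with no settings. RNA was amplified with SMARTer Ultra Low Input and Nextera XT kits, per the labels' protocols.

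From these tables, FPKM was summed over the loci of a symbol, symbols on 1 locus were joined, and the median over the tables of a library was printed as its level. Genes marked as failed (9) were left out. For testing, log2(FPKM + 1) was joined within a batch by least squares over its tables and fitted with limma 3.58.1 (R 4.3.3) with a mean-dependent prior, the batch as a block and all 12 libraries, which left 6 residual degrees of freedom. A pseudocount of 1 understates the change of low genes. Genes needed at least 1 FPKM in at least 3 libraries, and Benjamini-Hochberg adjusted p was read at 0.05. Tables were read with Python 3.11.15, pandas 2.3.3 and numpy 2.4.6. The batch is the replicate number of the labels and the grouping of the tables. Libraries of a batch deviated together, with a lowest correlation of 0.275, 0.4 and 0.525 in batches 1 to 3, while across batches it reached 0.461, 0.461 and -0.285, so batch 3 alone stood clear of the others. On simulated data for the averaged GC comparison over 14605 genes, 0 of 50 genes changed by a log2 of 1 were called, 19 of 50 changed by 2, 48 of 50 changed by 4 and 50 of 50 changed by 6, with 6 false calls.

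Estimated reads were obtained from the whole-number steps of low FPKM values. Of the histone values on short loci, 91.2% lay within 0.15 of a whole read. Read steps and limits cover counting error only. The members and all gene lists were chosen with earlier results of these data known. Members named with values are the 8 with the highest median FPKM, the 6 with the largest averaged GC difference, the 3 with the largest difference in each genotype comparison and the interaction, and any past the threshold. Of the other lists, the 3 genes of smallest p and Slbp, H2afx, H2afz and Mki67 are named. H3f3a, Hist1h2be, Hist1h2ak, Hist1h2bq and Hist4h4 are named beside these. The alternatives tried were other pseudocounts, filters, scalings and table choices, a fit without the block, and leaving out each library or batch. Some marker values are not reported here.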

Additional observations from a re-analysis of the deposited data

Results flagged for a closer look

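The locus that Hist3h2a, an H2A gene, shares with Trim17 moved one way in every pair of one genotype and the other way in every pair of the other. It was at 6.97, 0.592 and 0 FPKM in Ifnar1KO GC of batches 1 to 3, against 8.37, 3.97 and 1.31 in Ifnar1KO non-GC. In Sle1b GC it was at 7.42, 5.87 and 4.64 FPKM, against 6.15, 4.69 and 2.82 in Sle1b non-GC. GC minus non-GC was -0.17, -1.59 and -1.31 on the log2 scale in Ifnar1KO and 0.83, 0.27 and 0.50 in Sle1b. The share of all genes tested with such a pattern of signs was not counted, so the pattern alone does not set this locus apart. The difference between the genotypes was tested as an interaction, which was -1.56 ± 0.84 (limma, unadjusted p = 0.0892, adjusted p = 0.996) and did not pass. Reads of Hist3h2a and Trim17 at this locus cannot be told apart.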

How the results depend on the processing

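The number of histone genes past the threshold was 0 in 149 of 150 counts, from 25 alternatives in each of 6 comparisons. The exception was the averaged GC comparison without batch 3, with the filter redone, which had 3. Without the replicate block the medians were 0.82 in Ifnar1KO, 1.33 in Sle1b and 1.10 on average for GC against non-GC, with 0 past the threshold. Leaving out 1 library at a time gave medians of 0.03 to 1.28 in Ifnar1KO, 0.43 to 1.72 in Sle1b and 0.52 to 1.26 on average, all above 0. Without batch 1 they were 0.01, 0.38 and 0.02 in the same order. The genotype medians did not hold their sign: leaving out 1 library gave -0.84 to 0.37 in non-GC, -1.17 to 0.06 in GC and -0.99 to 0.45 for the interaction. The GC genotype median was -0.82 with a pseudocount of 0.1 and -0.09 with libraries centred on their median. That scaling and the common sum were chosen after seeing the data. The summed histone FPKM of Ifnar1KO GC in batch 1 was 1551 in the lowest of its tables, below the lowest value of Sle1b GC (1862). The cause of these shifts was not tested. At this depth, an absence of reads on a histone gene of 400 bases allows a level of up to 1.83 to 5.19 FPKM, depending on the library (counting error only), and a failed estimate listed at 0 sets no limit.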

Other observations

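Hist1h2ba, an H2B gene known from testis, was listed at 31.4 FPKM in Sle1b non-GC of batch 3, an estimated 36 reads, and at 0 in the other 11 libraries. Hist1h2bl was at 31.9 FPKM in the same library and at 0 in the other libraries of batch 3. Both genes were chosen after their values were seen.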
